A study of Mus musculus with 20 samples.

Results

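H3K4me3, trimethylated lysine 4 of histone H3, was mapped in excitatory and in inhibitory neuronal nuclei of the mouse brain, and the regions described here were marked in the excitatory nuclei alone. Overlapping H3K4me3 peaks of the 4 libraries on chromosomes 1 to 19 and X were merged into 345930 union regions. Of these, 7279 held a peak in both excitatory libraries and in neither inhibitory library. The members were thus chosen by the presence of H3K4me3 peaks, so every H3K4me3 value below is a description and was not tested. For comparison, 11398 regions had a peak in both inhibitory libraries alone, 20979 had one in all 4 libraries, 12737 in 1 library of each type, and 281126 in a single library.

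The data came from CUT&RUN, in which an antibody directs a nuclease to cut and release the bound chromatin for sequencing, on nuclei sorted by flow cytometry from whole brain of 8-week-old mice. All mice had the genotype Sun1 f/f with Emx1Cre (+). The Emx1 gene drives Cre in progenitors of the dorsal forebrain, which give rise mainly to excitatory neurons. How the sort separated the inhibitory nuclei is not stated in the sources used. Excitatory and inhibitory nuclei were each profiled for H3K4me3, H3K27ac, H3K4me1, H3K27me3 and the transcription factor EGR1, with 2 libraries per group and 20 in all. Whether a group's 2 libraries stem from different animals is not in the labels, and the spread between them may be technical.

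H3K4me3 is deposited around the starts of transcribed genes by SET1 and MLL family methyltransferases and is recognised by factors that promote transcription. Wide CpG-rich promoters usually carry it in every cell type, whereas smaller H3K4me3 regions also form at active enhancers, beside H3K4me1 and H3K27ac. H3K27me3 is the mark of Polycomb repression, and a start that carries it with H3K4me3 is called bivalent. EGR1 is a zinc-finger factor induced by neuronal activity that binds GC-rich sites.

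The RefSeq promoter windows (GRCm38.p6, the assembly behind the authors' mm10 build, 250 bases before to 50 bases after a gene start) of 4 of the strongest member regions at gene starts are shown because they differ in CpG content. CpG dinucleotides are in capitals, and each sequence is written 5′ to 3′ on the strand of its gene.
Mgat4c promoter, chr10:101681237-101681536, plus strand: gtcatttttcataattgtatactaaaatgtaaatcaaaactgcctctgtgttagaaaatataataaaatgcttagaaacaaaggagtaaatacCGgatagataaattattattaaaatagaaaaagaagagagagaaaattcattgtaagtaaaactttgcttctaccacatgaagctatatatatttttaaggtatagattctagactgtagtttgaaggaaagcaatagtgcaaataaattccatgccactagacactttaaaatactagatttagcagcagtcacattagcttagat
Efemp1 promoter, chr11:28852955-28853254, plus strand: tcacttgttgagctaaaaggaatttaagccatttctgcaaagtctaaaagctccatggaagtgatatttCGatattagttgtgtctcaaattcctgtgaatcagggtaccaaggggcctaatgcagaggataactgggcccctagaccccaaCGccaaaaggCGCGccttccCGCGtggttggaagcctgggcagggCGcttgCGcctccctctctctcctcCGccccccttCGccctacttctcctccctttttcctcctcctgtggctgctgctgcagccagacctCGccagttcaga
Cfap221 promoter, chr1:119997183-119997482, minus strand: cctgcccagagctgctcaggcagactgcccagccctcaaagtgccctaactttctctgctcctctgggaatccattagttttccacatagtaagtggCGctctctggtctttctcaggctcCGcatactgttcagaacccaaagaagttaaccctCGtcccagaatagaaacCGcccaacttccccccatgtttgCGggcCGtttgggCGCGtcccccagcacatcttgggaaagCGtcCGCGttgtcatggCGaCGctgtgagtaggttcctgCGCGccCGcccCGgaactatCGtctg
Nox4 promoter, chr7:87246399-87246698, plus strand: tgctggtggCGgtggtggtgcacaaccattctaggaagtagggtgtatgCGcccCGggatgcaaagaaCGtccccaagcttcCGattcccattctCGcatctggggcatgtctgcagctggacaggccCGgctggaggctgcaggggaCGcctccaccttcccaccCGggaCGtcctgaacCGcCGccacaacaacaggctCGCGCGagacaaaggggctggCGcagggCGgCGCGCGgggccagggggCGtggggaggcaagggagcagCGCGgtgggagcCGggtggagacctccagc

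The Mgat4c window held 1 CpG in 300 bases with a GC content of 27.7%, and that of Efemp1 held 11 CpGs. The window of Cfap221 held 18 CpGs and that of Nox4 24. A total of 195 RefSeq promoter windows, belonging to 183 genes, overlapped a member. Their median was 8 CpGs and their median observed-to-expected CpG ratio 0.393, against 22 CpGs and 0.782 for the 12259 windows overlapping a region of all 4 libraries. Over all 21045 windows the medians were 13 CpGs and 0.574, and the 96 windows of inhibitory-only regions had a median of 6 CpGs. Promoters marked in excitatory nuclei alone were therefore poorer in CpG than promoters marked in both types.

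**Figure D1:**
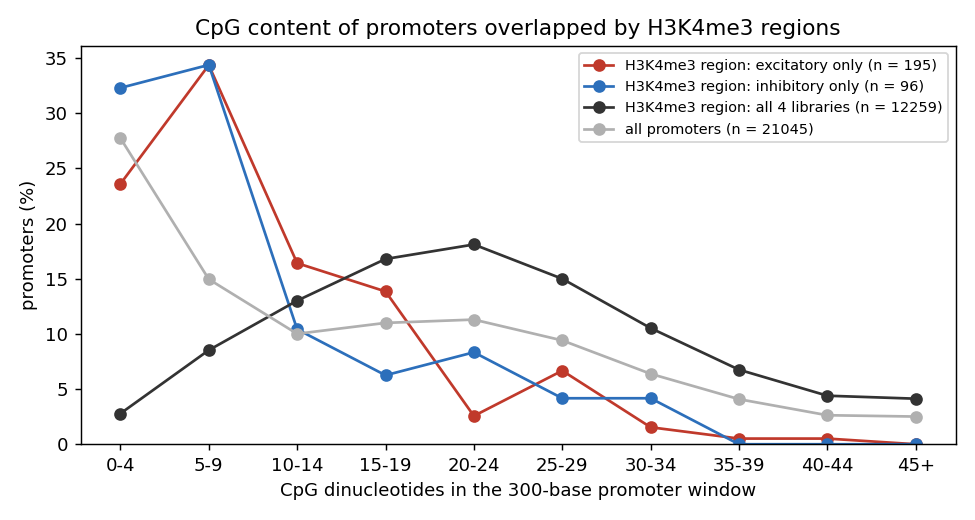
CpG dinucleotides in the 300-base promoter window (x axis, in steps of 5) against the percent of promoters (y axis), for windows overlapping an H3K4me3 region of excitatory nuclei only, of inhibitory nuclei only or of all 4 libraries, and for all windows. The excitatory-only curve (n = 195) peaks at 5 to 9 CpGs, while the curve of regions present in all 4 libraries (n = 12259) peaks at 20 to 24.

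The same windows were searched on both strands for 4 short motifs, which could overlap one another. The EGR1 motif GCGNGGGCG was found in 6.15% of the windows overlapping a member and in 7.60% of all windows. The neuronal E-box CAGATG, a site of NEUROD-type factors, occurred in 39 of the 195 windows, against 14.4% of all windows. For the AP-1 motif TGANTCA the shares were 12.8% and 7.04%, and the cAMP-response motif TGACGTCA was in 0 of 195 windows against 2.26% of all. Windows of inhibitory-only regions had the E-box in 24.0%, so a share above that of all windows was not particular to the members. They had the AP-1 motif in 10.4% and the EGR1 and cAMP-response motifs in 3.1% each. None of the 4 windows shown above held the EGR1 motif, and the one of Efemp1 held an AP-1 motif 154 bases before the start.

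Of 1005 microRNA hairpins on these chromosomes, 8 overlapped a member, and their mature sequences are given because the members lie on the hairpin itself. The seed, bases 2 to 8, is in capitals.
mmu-miR-344d-3p: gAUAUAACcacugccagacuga
mmu-miR-344d-1-5p: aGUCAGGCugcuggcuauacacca
mmu-miR-344d-2-5p: aGUCUGGUugcuggcuauauucca
mmu-miR-344d-3-5p: aGUCAGGCuagugguuauacucc
mmu-miR-344f-3p: cUCUAGCCaggaccugacuac
mmu-miR-344f-5p: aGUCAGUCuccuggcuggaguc
mmu-miR-149-5p: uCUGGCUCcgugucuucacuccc
mmu-miR-125b-5p: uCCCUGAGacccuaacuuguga
mmu-miR-194-5p: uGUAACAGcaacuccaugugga
mmu-miR-6337: uGAGGGCUgcuggguugcuaggu

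Of the 8 hairpins, 4 belonged to the miR-344 family on chromosome 7, and 3 of these (Mir344d-1, Mir344d-2 and Mir344d-3) give the same mature miR-344d-3p. On the other arm, miR-344d-1-5p and miR-344d-3-5p shared the seed GUCAGGC, and miR-344d-2-5p differed from them in its seed. The members at the hairpins were Mir344d-1 at chr7:61682591-61683305, Mir344d-2 at chr7:61685020-61685700, Mir344d-3 at chr7:61726017-61726354 and Mir344f at chr7:62045986-62046417. Because these copies are nearly alike, how reads were divided among them is uncertain.

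Around each region a window of the region plus 1 kb on either side was taken, and the percent of it covered by peaks of another antibody was used as a level. At Mir344d-1, H3K27ac covered 19.6% and 37.1% of the window in the 2 excitatory libraries and 0% in both inhibitory ones. The window of Mir344d-3 had H3K27ac over 28.7% and 35.0% in excitatory nuclei and H3K4me1 over 48.3% and 30.9%, with 0% of either mark in both inhibitory libraries. The Mir344d-2 window likewise had 15.6% and 25.4% H3K27ac in excitatory and 0% in inhibitory libraries. The 3 miR-344d copies thus carried both active marks in excitatory nuclei alone, whereas at Mir344f one inhibitory library also had H3K27ac, at 12.0%.

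The member at Mir149, a microRNA inside Gpc1, was 2028 bases wide (chr1:92848537-92850564), with H3K27ac over 21.5% and 31.1% of its window in excitatory and 7.25% and 0% in inhibitory libraries. At Mir6337, inside Slc38a11, no library had H3K27ac, and H3K27me3 covered 46.6% and 68.5% in excitatory and 54.1% and 84.2% in inhibitory libraries. Mir125b-1 (chr9:41581759-41582988) had almost no H3K27ac, at 0% and 5.45% in excitatory and 0% in both inhibitory libraries. The microRNA members therefore ranged from windows with active marks to a window covered by H3K27me3 in every library.

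Most members lay away from gene starts, as did most H3K4me3 regions. They covered 4.73 Mb in all, and their width ran from 291 to 3493 bases with a median of 565. Regions of all 4 libraries had a median width of 1734 bases, regions with a peak in 1 library of each type 404 bases, and all regions 206 bases. Within 2 kb of the start of a protein-coding gene lay 635 members, 8.72% (exact 95% binomial interval 8.09% to 9.40%, for counting error only). This share was 16.0% with H3K4me3 peaks of −log10 p of at least 3, 24.3% with q below 0.05, 3.99% without excitatory replicate 1 and 4.84% without excitatory replicate 2. A further 4080 (56.1%) lay elsewhere in a gene body and 2564 (35.2%) outside genes, and 74.8% were more than 10 kb from any start. For regions of all 4 libraries the share at gene starts was 61.1%, for inhibitory-only regions 4.44% and for all regions 7.15%. Neighbouring members were 123 kb apart at the median, and 1237 of them (17.0%) had another member within 10 kb.

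**Figure D2:**
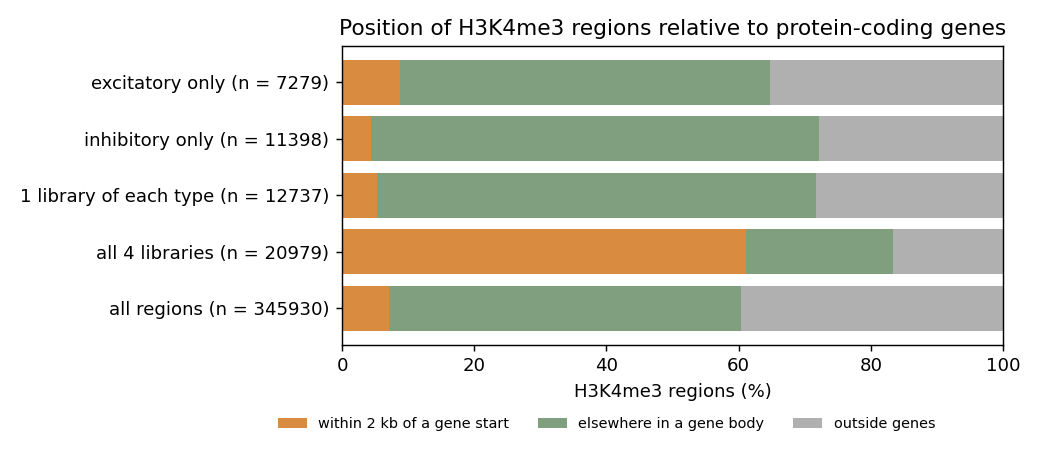
Percent of H3K4me3 regions (x axis) within 2 kb of a protein-coding gene start, elsewhere in a gene body or outside genes, for 5 classes of regions (rows, with the number of regions). Excitatory-only regions are at gene starts in 8.72% and regions of all 4 libraries in 61.1% of cases.

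The H3K4me3 peaks behind the members were weak. By the authors' values, the strongest peak in a member had a median −log10 p of 2.73 (up to 14.1) in excitatory replicate 1 and 2.68 (up to 16.8) in replicate 2. At regions of all 4 libraries the medians were 7.38 and 10.3. A q-value below 0.05 was reached in both excitatory libraries by 917 members (12.6%), in 1 by 2643 and in none by 3719 (51.1%). The weakest peak that made a region a member had a −log10 p of 1.31. Just outside the rule were 2536 regions with a peak in both excitatory and 1 inhibitory library, whose inhibitory peak had a median −log10 p of 2.64 and a lowest value of 1.31. The 2 excitatory H3K4me3 libraries held 79135 and 163053 peaks and the inhibitory ones 159364 and 83532, and the part of library depth in membership was not tested.

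H3K27ac, found at active promoters and enhancers, had been profiled in libraries that the rule did not use. A peak overlapped 39.4% of the members in excitatory replicate 1 (exact 95% interval 38.3% to 40.6%) and 52.5% in replicate 2 (51.3% to 53.6%). In the inhibitory libraries the shares were 10.3% (9.64% to 11.1%) and 11.9% (11.2% to 12.7%). The types did not overlap, and these intervals cover counting error only. Over all H3K4me3 regions the same shares were 16.4% and 22.6% in excitatory and 17.5% and 18.6% in inhibitory libraries. Dividing each library's share among members by its share among all regions gave 2.40 and 2.32 in excitatory and 0.591 and 0.641 in inhibitory nuclei. The log2 ratios were 1.24 ± 0.0335 (SD, n = 2) and −0.70 ± 0.0831 (SD, n = 2), a difference of 1.94. The two-sided exact permutation test gave p = 0.333, the smallest value that 2 libraries against 2 allow, so this comparison could not pass a threshold of 0.05. Of the deposited H3K27ac peaks, 2.57% and 4.94% had q below 0.05 in the excitatory libraries, where the inhibitory libraries had 31.8% and 35.1%, and the part of this gap in the result was not tested.

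H3K4me1, the mark of enhancers and of the flanks of promoters, overlapped 70.7% and 77.3% of the members in excitatory and 36.1% and 29.7% in inhibitory libraries. Over all regions the shares were 35.1% and 38.9% against 31.5% and 29.6%. The members were thus close to all regions in the inhibitory libraries, at ratios of 1.15 and 1.003, and stood above them in the excitatory ones, at 2.02 and 1.99. The difference of the log2 ratios was 0.90, again with an exact permutation p of 0.333.

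For EGR1 the shares of members with a peak were 51.9% and 52.7% in excitatory and 23.6% and 27.4% in inhibitory libraries. All regions stood at 17.1% and 17.4% against 10.4% and 13.1%. Taken over all positions, members thus had more EGR1 peaks than all regions in every library, but near gene starts they had fewer (below). The ratios over all positions were 3.03 and 3.03 in excitatory and 2.27 and 2.10 in inhibitory nuclei. The log2 difference between the types was 0.47 (exact permutation p = 0.333). The excitatory EGR1 libraries held 93858 and 98534 peaks and the inhibitory ones 49899 and 62412, and the part of this gap in the result was not tested. Among the 917 members with q below 0.05 in both excitatory H3K4me3 libraries, the EGR1 shares were 75.8% and 75.8% against 47.4% and 51.4%, and the log2 difference was 0.05 (exact permutation p = 1).

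H3K27me3 ran the other way. It overlapped 21.2% and 25.8% of the members in excitatory and 41.1% and 38.5% in inhibitory libraries, against 13.4%, 15.3%, 19.9% and 17.96% of all regions. The log2 ratio to all regions averaged 0.71 ± 0.0722 (SD, n = 2) for the excitatory libraries, below the 1.07 ± 0.0352 (SD, n = 2) of the inhibitory ones, with a difference of −0.37 with an exact permutation p of 0.333. At inhibitory-only regions the order was turned, with 16.0% and 16.9% in excitatory against 12.0% and 10.8% in inhibitory libraries.

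**Figure D3:**
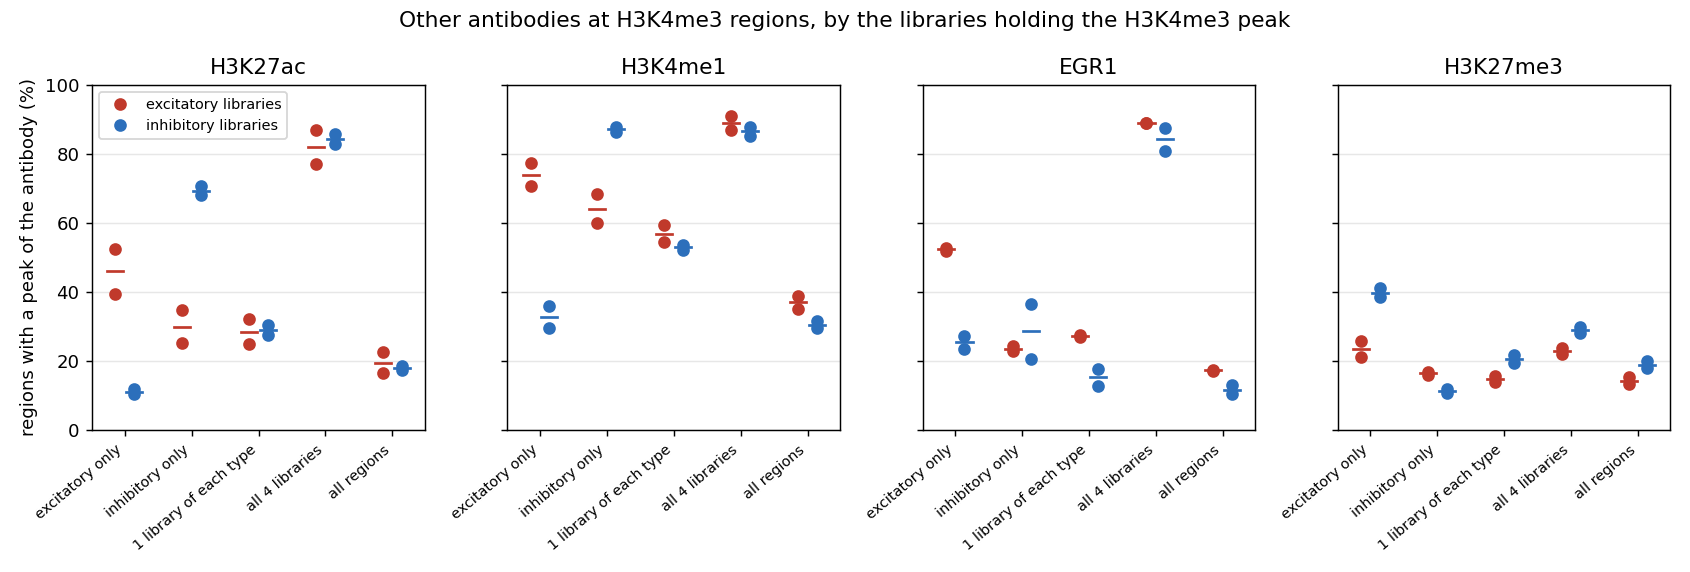
Percent of H3K4me3 regions with a peak of H3K27ac, H3K4me1, EGR1 or H3K27me3 (y axis), for 5 classes of regions (x axis). Each point is 1 library and each short line the mean of the 2 libraries of a type. At excitatory-only regions the H3K27ac points lie at 39.4% and 52.5% for excitatory and at 10.3% and 11.9% for inhibitory nuclei, and the H3K27me3 points lie in the opposite order.

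Regions with a peak in 1 library of each type also rest on 2 libraries. H3K27ac overlapped 24.9% and 32.2% of them in excitatory and 27.7% and 30.5% in inhibitory libraries, so their types overlapped. H3K4me1 stood at 54.4% and 59.4% against 53.7% and 52.1%. Their EGR1 shares, at 26.8% and 27.5% against 12.7% and 17.8%, kept the order seen at the members, with lower levels in all 4 libraries.

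Region by region, 1582 members (21.7%) had H3K27ac in both excitatory and no inhibitory library, where 3.03% of all regions did. The opposite H3K27ac pattern was seen at 82 members, 1.13%, against 3.50% of all regions. H3K4me1 was in both excitatory and no inhibitory library at 2331 members (32.0%, against 7.94%), and EGR1 at 1450 (19.9%, against 4.45%). Their opposite patterns, in both inhibitory libraries alone, were seen at 70 (0.962%, against 3.59%) and 77 members (1.06%, against 0.669%). H3K27me3 in both inhibitory and no excitatory library was found at 727 members (9.99%, against 3.90%) and the reverse at 89 (1.22%, against 1.85%). At least 1 of H3K27ac, H3K4me1 and EGR1 had the excitatory-only pattern at 3688 members (50.7%), and at 12.4% of all regions. All 3 had it at 239 members (3.28%, against 0.363%). At the other end, 339 members (4.66%) had no peak of any other antibody in any library, against 25.5% of all regions. The members were wider than all regions, and the part of width in these counts was not tested.

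The antibodies combined in different ways among the members. H3K4me1 without H3K27ac, in the excitatory-only pattern, was found at 1512 members (20.8%, against 6.72% of all regions), and both marks together at 819 (11.3%, against 1.22%). EGR1 had the pattern without H3K27ac at 1043 members (14.3%, against 3.78%) and with it at 407 (5.59%, against 0.670%). H3K27me3 restricted to inhibitory nuclei coincided with at least 1 of the 3 excitatory-only patterns at 454 members (6.24%), against 1.06% of all regions.

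Position changed the picture. At the 635 members near gene starts, H3K27me3 was present in 43.5% and 46.9% in excitatory and 59.5% and 58.3% in inhibitory libraries, and 196 of them (30.9%) had it in all 4 libraries. Of all H3K4me3 regions near gene starts it was at 23.8% and 25.4% against 31.0% and 29.0%. Members in gene bodies had H3K27me3 in 13.1% and 15.9% against 28.8% and 26.5%, where all regions there had 8.22% and 9.37% against 13.6% and 11.96%. Outside genes the H3K27me3 shares were 28.4% and 36.3% in excitatory and 56.1% and 52.6% in inhibitory libraries. All regions outside genes stood at 18.6% and 21.3% against 26.2% and 24.0%. Members outside genes also showed the widest gap in H3K27ac, with 42.5% and 60.6% in excitatory and 6.12% and 7.49% in inhibitory libraries. Of all regions outside genes, H3K27ac was at 10.5% and 17.9% against 9.88% and 10.8%. EGR1 was likewise most frequent there, at 59.4% and 61.1% against 28.4% and 33.1%. Near gene starts, H3K27ac overlapped 32.8% and 49.4% of members in excitatory and 7.87% and 8.82% in inhibitory libraries, whereas of all H3K4me3 regions at gene starts 48.8% to 56.8% carried it in each of the 4 libraries.

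Wider members carried the other marks more often. Members were ordered by width in 4 classes of nearly equal number. From the narrowest (291 to 426 bases) to the widest (783 to 3493 bases), the H3K27ac share went from 26.0% and 37.6% to 58.2% and 71.5% in excitatory libraries. In the inhibitory libraries it was 8.92% and 10.2% in the narrowest class and 11.1% and 12.2% in the widest class. EGR1 went from 35.3% and 36.7% to 72.0% and 72.7% in excitatory and from 10.6% and 15.3% to 41.5% and 46.3% in inhibitory libraries. H3K27ac in inhibitory nuclei was thus nearly level over width, while EGR1 and H3K27me3 climbed in both types. The part of length in these trends was not tested. By H3K4me3 significance, excitatory H3K27ac stood at 30.0% and 40.7% of members with q below 0.05 in no excitatory library and at 57.5% and 72.8% of those with it in both. Inhibitory H3K27ac was at 10.4% and 12.9% of the former and at 8.83% and 8.62% of the latter.

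**Figure D4:**
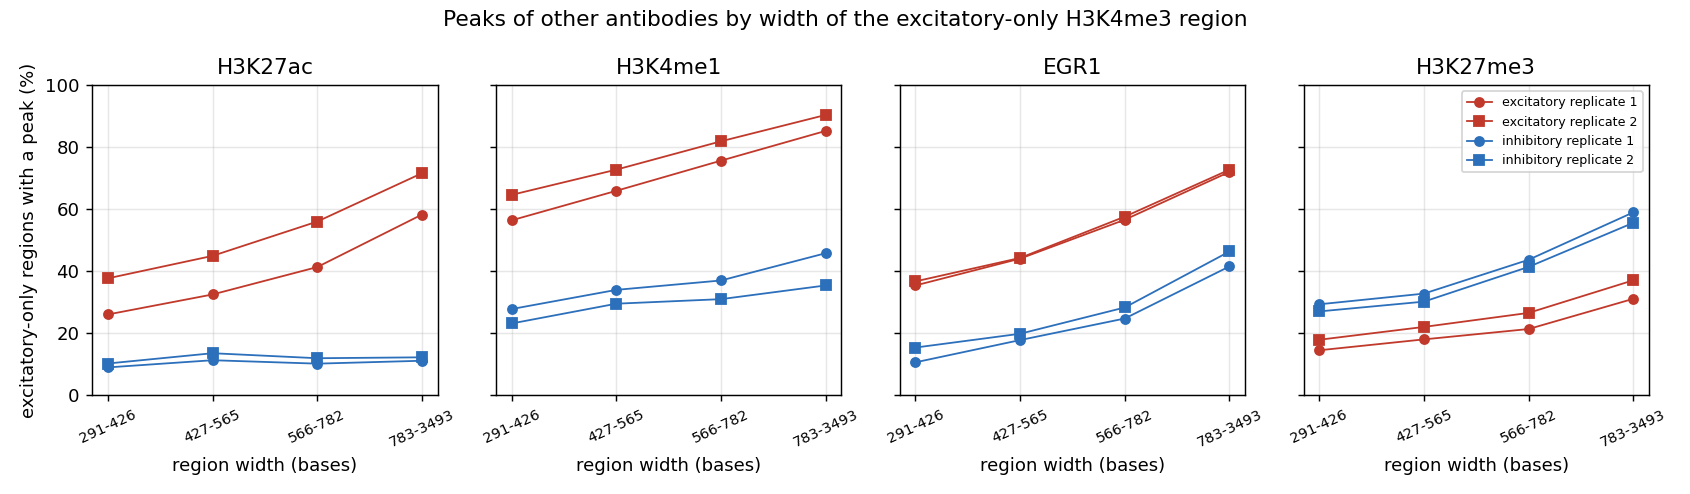
Percent of excitatory-only H3K4me3 regions with a peak of each other antibody (y axis) by class of region width in bases (x axis), with 1 line per library. Excitatory H3K27ac climbs to 58.2% and 71.5% in the widest class while inhibitory H3K27ac stays between 8.92% and 13.5% in every class.

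The percent of each window covered was compared between types with limma, quantile-normalized and adjusted by Benjamini-Hochberg over all regions covered in at least 2 libraries. No member passed an adjusted p of 0.05 for any antibody, and the background was 0% of all regions tested in either direction. The filter was passed by 4253 of the 7279 members for H3K27ac, 6311 for H3K4me1, 3864 for H3K27me3 and 4549 for EGR1. The lowest adjusted p over all regions was 0.137 for H3K27ac, 0.0733 for H3K4me1, 0.226 for H3K27me3 and 0.0642 for EGR1. At an unadjusted limma p below 0.05, 1756 members had more H3K27ac in excitatory nuclei and 132 less, beside 15.2% and 14.1% of all regions tested. H3K4me1 gave 2412 and 213 members (background 15.2% and 14.5%), EGR1 1037 and 388 (14.6% and 15.5%), and H3K27me3 142 and 698 (9.86% and 11.1%). These counts carry no correction for many tests.

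The count of 0 depended on the window, and the cause was not tested. With the region alone in place of the region plus 1 kb on either side, 781 members had more H3K27ac in excitatory nuclei and 13 less at a limma adjusted p below 0.05, of 2594 tested, beside 7.93% and 7.47% of all regions tested. H3K4me1 gave 1397 and 58 of 5295 (background 12.7% and 9.27%), and EGR1 664 and 129 of 3710 (13.1% and 8.27%). For H3K27me3, 87 members were higher and 218 lower in excitatory nuclei, of 2788 (background 8.23% and 9.28%). Both H3K27me3 counts were smaller shares of the members tested than the background.

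Over all 7279 members the mean H3K27ac coverage of the window was 12.4% and 16.8% in excitatory and 4.16% and 4.78% in inhibitory libraries. Mean H3K4me1 coverage was 35.5% and 43.9% against 17.98% and 15.9%, and mean EGR1 coverage 13.8% and 13.9% against 4.60% and 5.55%. H3K27me3 covered 11.02% and 13.8% in excitatory and 25.2% and 23.5% in inhibitory libraries. The types did not overlap for any of the 4. Over all regions the means were 6.30% and 9.23% against 7.58% and 8.24% for H3K27ac, where the types overlapped. For H3K4me1 they were 19.98% and 24.6% against 19.7% and 19.01%, for EGR1 5.63% and 5.70% against 2.53% and 3.46%, and for H3K27me3 8.67% and 10.2% against 14.01% and 12.6%. For these 3 antibodies all regions thus had the types in the same order as the members, without overlap.

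The 15 strongest members at gene starts, ranked by their H3K4me3 peaks, were those of Dnah7c, Cpne6, Cfap221, Efemp1, Palmd, Nox4, Mgat4c, Lrrc6, Mlana, Rsph9, Nxph2, Kl, Tmem179, Mitf and Tmem143. Of these windows, 14 had H3K27ac in at least 1 excitatory library, 8 had it in both, and 0 had it in any inhibitory library. H3K4me1 was in both excitatory libraries at 15 and in at least 1 inhibitory library at 9. For EGR1 these counts were 14 and 12. The same counts over all windows at gene starts are not given here. H3K27me3 was present in both inhibitory libraries at 13 of them and in both excitatory libraries at 7. Dnah7c is an axonemal dynein heavy chain, Cfap221 a protein of the ciliary central apparatus, Rsph9 a radial spoke head protein and Lrrc6 an assembly factor of dynein arms. Dnah7c belongs to a family of near-identical copies, so its peaks are uncertain.

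**Figure D5:**
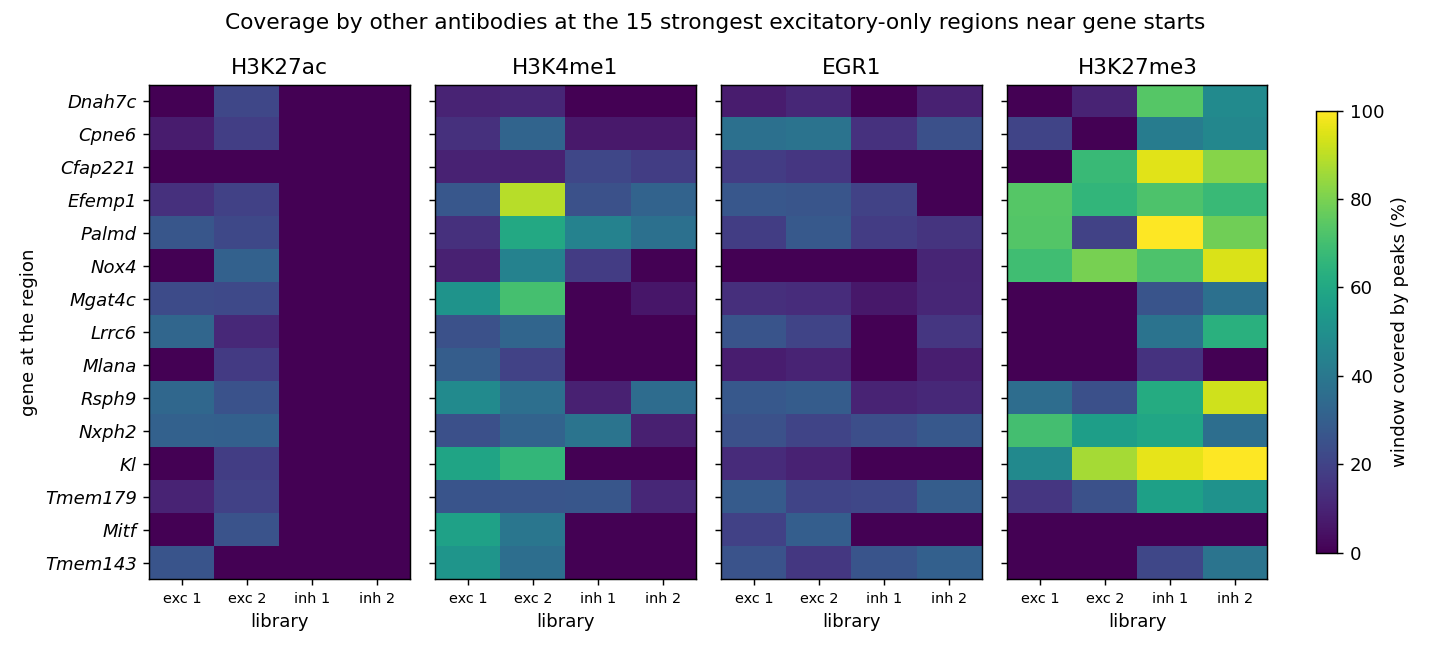
Percent of the window (region plus 1 kb on either side) covered by peaks of each other antibody (colour, 0 to 100%) at the 15 strongest excitatory-only regions near gene starts (rows), in the 2 excitatory (exc) and 2 inhibitory (inh) libraries (columns). The H3K27ac columns of the inhibitory libraries are at 0% in all 15 rows, and H3K27me3 reaches 100% at Palmd and Kl in an inhibitory library.

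Mgat4c, of the family of N-acetylglucosaminyltransferases that branch N-glycans, had a member of 2920 bases at its start (chr10:101681422-101684341), over the CpG-poor promoter shown above. Its window had H3K27ac over 22.8% and 21.9% in excitatory and 0% in both inhibitory libraries, and H3K4me1 over 51.2% and 70.7% against 0% and 5.98%. H3K27me3 was 0% in both excitatory libraries, while the inhibitory ones had 25.8% and 37.1%. All 3 marks thus separated the types without overlap. In limma the H3K4me1 difference was 54.3 percentage points (SE 13.4, adjusted p = 0.0789) and the H3K27ac difference 25.5 points (SE 6.21, adjusted p = 0.137), neither past the threshold.

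Kl encodes klotho, a co-receptor for the hormone FGF23, and its member lay at chr5:150952474-150953528. H3K4me1 covered 58.3% and 66.0% of the Kl window in excitatory libraries and 0% in both inhibitory ones, a limma difference of 61.4 points (SE 12.7, adjusted p = 0.0733). H3K27me3 was present at Kl in every library, at 47.5% and 86.5% in excitatory and 96.4% and 100% in inhibitory nuclei. The Kl window thus held H3K4me3 and H3K27me3 in the excitatory libraries, where marks on the same nuclei and on different nuclei cannot be told apart.

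At Cfap221 (chr1:119996598-119997737) no library had H3K27ac, and H3K27me3 covered 0% and 67.6% in excitatory and 95.6% and 81.7% in inhibitory libraries. EGR1 covered 17.6% and 15.7% of the Cfap221 window in excitatory libraries and 0% in both inhibitory ones. Lrrc6 (chr15:66500116-66501299) had H3K27me3 at 38.0% and 63.3% in inhibitory libraries and at 0% in both excitatory ones. The Lrrc6 difference was −44.1 points (SE 14.9, limma adjusted p = 0.226). At both genes the inhibitory libraries had the higher H3K27me3 coverage, without overlap.

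Efemp1 and Nox4 showed another pattern. Efemp1, which encodes the extracellular matrix protein fibulin-3, had H3K27me3 over 73.6% and 65.8% of its window (around chr11:28852966-28854463) in excitatory and 72.1% and 67.8% in inhibitory libraries, so the types overlapped. Its H3K27ac was 13.9% and 19.4% in excitatory and 0% in both inhibitory libraries. At Nox4, an NADPH oxidase that produces hydrogen peroxide (chr7:87245897-87247218), H3K27me3 covered 69.5% and 79.6% against 72.0% and 94.2%. Mitf, a melanocyte transcription factor, had no H3K27me3 in any library, and its H3K4me1 stood at 57.2% and 39.1% in excitatory and 0% in both inhibitory libraries.

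Cpne6, a calcium-dependent membrane-binding copine of forebrain neurons, had a member of 2288 bases (chr14:55509809-55512096). EGR1 covered 37.0% and 38.2% of the Cpne6 window in excitatory and 14.2% and 24.4% in inhibitory libraries. Nxph2, a neurexophilin that binds alpha-neurexins, had H3K27ac over 30.9% and 30.6% in excitatory and 0% in both inhibitory libraries, a limma difference of 35.2 points (SE 6.76, adjusted p = 0.137). Its EGR1 coverage overlapped between the types, at 24.8% and 20.4% against 24.0% and 27.5%.

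The strongest members more than 10 kb from any gene had as their nearest gene starts those of Rad23b, Gm40514, Sash1, Lef1 and Cxxc4, and the first of these, at chr4:55293568-55295143 and 54899 bases from the start of Rad23b, ranked first among all members. Its H3K4me3 peaks had a −log10 p of 10.4 and 16.8. H3K27ac covered 0% and 43.8% of its window in excitatory and 0% in both inhibitory libraries, so a single library carried that mark. H3K27me3 covered 31.2% and 45.7% of it in excitatory and 79.3% and 61.3% in inhibitory libraries. None of the 5 distal windows had H3K27ac in an inhibitory library, and 2 had it in both excitatory libraries. All 5 had H3K27me3 in both inhibitory libraries, and 4 of them also had it in both excitatory libraries.

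The widest members lay at the starts of Rasgrf2 (3493 bases), Prickle2 (3262), Chrm1 (2925) and Mgat4c, and in the body of Il34 (3150). Rasgrf2 is a calcium-responsive exchange factor for RAS, Prickle2 a planar cell polarity protein of synapses, and Chrm1 the M1 muscarinic acetylcholine receptor. Before normalization EGR1 covered more of the window in both excitatory than in both inhibitory libraries at all 5. Prickle2 had 30.4% and 21.4% against 8.89% and 12.6%. The same count over all regions is not given here. By the mean of each type, a looser measure, EGR1 coverage was higher in excitatory nuclei at 63.0% of all members. It was so at 73.9% of regions of all 4 libraries and at 27.6% of all regions. After quantile normalization the EGR1 difference turned negative at Rasgrf2 (−5.08 points, limma adjusted p = 0.343) and at Mgat4c (−7.24 points, limma adjusted p = 0.206). The Il34 member, in the gene of a ligand of the microglial CSF1 receptor, had H3K4me1 over 41.3% and 55.6% in excitatory and 0% in both inhibitory libraries (limma difference 46.0 points, SE 11.9, adjusted p = 0.0818). Chrm1 had the opposite order in H3K4me1, with 11.6% and 10.4% in excitatory and 39.6% and 44.6% in inhibitory libraries, a limma difference of −37.5 points (SE 11.5, adjusted p = 0.0990).

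Some genes held many members, and these were picked after their counts were seen. Kalrn, a guanine nucleotide exchange factor of dendritic spines, held 16 members over 604 kb, beside 3 inhibitory-only regions. H3K27ac peaks overlapped 7 and 10 of the 16 in excitatory libraries and 0 in both inhibitory ones, and H3K27me3 overlapped 0 and 5 against 10 and 9. Tenm3, a teneurin adhesion protein that guides circuit wiring, held 15 members and 0 inhibitory-only regions. H3K27ac overlapped 6 and 8 of the 15 Tenm3 members in excitatory and 0 in inhibitory libraries. In Dlgap2, a postsynaptic scaffold gene, the corresponding H3K27ac counts were 7 and 6 of 11 against 0 and 0. Of all 7279 members, H3K27ac overlapped 39.4% and 52.5% in excitatory and 10.3% and 11.9% in inhibitory libraries. For H3K27me3 these shares were 21.2% and 25.8% against 41.1% and 38.5%. Whether counts this small differ from the shares of all members was not tested.

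Other genes with many members had other counts. Rbfox1, a splicing regulator, held 11 members and 21 inhibitory-only regions, with H3K27ac at 4 and 1 of its members in excitatory and at 3 and 0 in inhibitory libraries. Dlg2, which encodes the scaffold PSD-93, held 12 members and 13 inhibitory-only regions. H3K4me1 at the members of Gse1 was nearly as frequent in inhibitory as in excitatory libraries, at 10 and 10 against 11 and 10 of 12. Members of 1 gene share a locus and are not independent of each other.

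Genes known for their neuron type were counted in lists. In all, 626 of 21631 protein-coding genes (2.89%) had a member within 2 kb of a start. Of 40 excitatory forebrain genes, 9 did: Camk2a, Neurod6, Emx1, Tle4, Mef2c, Nrgn, Cck, Arpp21 and Rtn4rl2. The list of 38 inhibitory neuron genes had 5, namely Slc32a1, Sp9, Tac1, Pnoc and Crhbp, and that of 18 striatal projection neuron genes also 5. For comparison, inhibitory-only regions lay at 1 of the 40 excitatory and 4 of the 38 inhibitory genes, and at 2.32% of all protein-coding genes. Since membership was defined by H3K4me3, these counts describe the members and were not tested.

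Among the defining markers reported here, Camk2a, Neurod6, Emx1 and Slc32a1 had a member at the start. Slc17a7, the vesicular glutamate transporter of forebrain neurons, had 0 members at its start and 2 regions of all 4 libraries. Gad1 and Gad2, the GABA-synthesizing enzymes, also had 0 at their starts, as had Tbr1, Dlx1, Dlx2 and Lhx6. Egr1 itself had H3K4me3 regions of all 4 libraries at its start and 0 members. Markers of astrocytes, oligodendrocytes and microglia had 0 members at the start among 15, 16 and 14 genes, and 3 of 14 vascular genes (Acta2, Esam and Abcc9) had one. At the 2.89% of all protein-coding genes, lists this short can hold 0. In the gene body, 3 of 15 astrocyte, 4 of 16 oligodendrocyte, 0 of 14 microglial and 2 of 14 vascular genes held a member, against 14.1% of all genes.

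At Cck, a neuropeptide of cortical neurons, 2 members lay at the start. In the one at chr9:121495459-121496275, H3K4me1 covered 37.0% and 45.9% in excitatory and 4.58% and 0% in inhibitory libraries, and EGR1 47.2% and 19.99% against 0% and 8.52%. Foxp1, a forkhead factor of cortical and striatal projection neurons, had a member over its promoter (chr6:99266082-99266777) with H3K27ac at 35.0% and 21.2% against 0% and 0%. Foxp1 EGR1 coverage there was 25.3% and 31.0% in excitatory and 0% in both inhibitory libraries. In these 2 regions the EGR1 values of the types did not overlap. The other Cck member, at chr9:121494927-121495254, had EGR1 over 52.3% and 12.97% in excitatory and 0% and 13.3% in inhibitory libraries, so there the types overlapped.

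Members also lay at the starts of inhibitory marker genes. Slc32a1, the vesicular GABA transporter, had a member with weak H3K4me3 peaks (−log10 p of 1.89 and 4.71) and no H3K27ac in any library. EGR1 covered 21.2% and 38.8% of its window in inhibitory libraries and 0% in both excitatory ones. At Sp9, a transcription factor of inhibitory neuron development, H3K27me3 covered between 62.1% and 76.0% in each of the 4 libraries. Pnoc, the precursor of the neuropeptide nociceptin, had H3K27ac over 30.6% and 46.1% in excitatory and 0% in both inhibitory libraries. Camk2a, the excitatory kinase, had H3K27ac over 0% and 20.3% of its window in excitatory and 10.8% and 0% in inhibitory libraries, so the types overlapped. H3K4me1 covered 0% of the Camk2a window in both excitatory libraries and 24.5% and 32.2% in the inhibitory ones.

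Receptor and channel genes supplied further members at starts. Voltage-gated potassium channels had 6 of 32 and neuropeptide and monoamine receptors 6 of 45, while GABA receptor and transporter, immediate early and housekeeping genes had 0 of 18, 24 and 23. Of all protein-coding genes 2.89% had one, and at that share lists this short can hold 0. Kcna5, a potassium channel, had H3K27ac over 34.8% and 14.6% of its window in excitatory and 0% in inhibitory libraries, and H3K27me3 over 51.9% and 42.3% against 100% and 100%. Oprm1, the mu opioid receptor, had H3K4me1 over 70.1% and 49.3% against 1.97% and 0%. At Hrh1, a histamine receptor, H3K4me1 covered 81.9% and 46.4% in excitatory and 0% in both inhibitory libraries. Not every list gene had this order. Among 50 member regions at starts of list genes, H3K4me1 was higher in both excitatory than in both inhibitory libraries at 19. It was higher in both inhibitory libraries at 11. The same counts over all regions are not given here. By the mean of each type, a looser measure, H3K4me1 coverage was higher in excitatory nuclei at 76.7% of all members and lower at 17.6%. Over all regions these shares were 43.3% and 31.6%. Gria1, an AMPA receptor subunit, had H3K27ac over 6.46% and 15.8% of its window in excitatory and 0% in inhibitory libraries, and EGR1 over 27.5% and 24.0% against 11.1% and 12.1%.

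In the other lists, glutamate receptor genes had 2 of 26, pan-neuronal genes 3 of 22, HOX genes 4 of 39, thalamic, hypothalamic and brainstem genes 4 of 36 and cerebellar granule neuron genes 1 of 22. Inhibitory-only regions lay at 13 of the 36 thalamic, hypothalamic and brainstem genes and at 7 of the 22 granule neuron genes. Over all protein-coding genes the share with such a region at the start was 2.32%. Of the excitatory forebrain genes, 22 of 40 (55.0%) held a member in the body, against 14.1% of all genes. So did 11 of 22 pan-neuronal genes, 9 of 18 GABA receptor and transporter genes and 8 of 18 striatal genes. Inhibitory-only regions lay in the bodies of 15 of the same 40 excitatory genes (37.5%, against 16.3% of all genes). The part of gene length in these counts was not tested.

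Members were sparse on the X chromosome. Of 3972 H3K4me3 regions there, 24 were members (0.604%), where each autosome had between 1.81% and 2.48%. Inhibitory-only regions made up 4.18% of the X regions and between 2.71% and 3.83% of those of each autosome. The X chromosome held 1.20% and 1.39% of the H3K4me3 peaks in excitatory and 1.40% and 1.90% in inhibitory libraries. The labels do not give the sex of the animals, and its part in this was not tested. Without the X chromosome the H3K27ac shares of the members were 39.4% and 52.5% against 10.3% and 11.9%.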

How the data were processed

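CUT&RUN libraries of sorted nuclei (CUTANA kit, NEBNext Ultra II) were trimmed, aligned and filtered and peaks called by the authors. Tools in the submitters' processing notes are MACS2 2.2.5, Bowtie2 2.3.5, SAMtools 1.12, Picard 2.25.0, Trim Galore 0.5.0 and cutadapt 1.18, with the build mm10; no source used here states settings or controls. Each library has its own list deposited by the authors, narrow peaks for H3K4me3, H3K27ac and EGR1 and broad peaks for the other marks, with no pooling. For every peak the authors deposited a score, a fold enrichment (ratio), a −log10 p and a −log10 q, used here to rank, filter and describe peaks. From the values, the narrow histone lists reach a p of 0.0483 to 0.0498, the broad lists 0.0988 to 0.0999 and the EGR1 lists 0.00481 to 0.00491. No list holds read counts, so depth is unknown.

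Groups and replicate numbers came from the sample titles; peak names inside the EGR1 lists carry other replicate numbers, and the labels were followed. Union regions and overlaps (at least 1 base) were computed in Python 3.11.15. Gene starts came from RefSeq promoters of GRCm38.p6 for the 17274 genes with a strand there; the other 4357 were placed by both ends. Window coverage was fitted with limma 3.58.1 in R 4.3.3 (quantile normalization, eBayes with a trend, cell type only, two-sided, Benjamini-Hochberg over all regions tested), after a check on simulated data. Quantile normalization removes differences in total coverage. Exact permutation tests used the library shares. Alternatives covered stricter peaks, equal peak numbers, other windows and distances, a replicate block and leaving out each library. Positions are 1-based.

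Regions named are the 15 strongest at gene starts, the 5 strongest over 10 kb from genes, the 5 widest, genes of the lists with a member at the start, and Slc17a7, Gad1, Gad2 and Egr1. Members, lists and tests were chosen with earlier results of these data known.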

Additional observations from a re-analysis of the deposited data

How the results depend on the processing

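The log2 difference between types in peak share relative to all regions kept its direction under all 11 alternatives for each antibody, within 1.88 to 2.79 for H3K27ac, 0.81 to 2.74 for H3K4me1, −0.43 to −0.30 for H3K27me3 and 0.05 to 0.96 for EGR1. The alternatives chosen after seeing the data were the members with q below 0.05 in both libraries, regions away from gene starts and genes with a known strand. With 2 libraries a side no p could fall below 0.333.

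The number of members was 2808 at a −log10 p minimum of 3 and 1454 at q below 0.05, and 8580 to 116439 when 1 library was left out, the largest without excitatory replicate 1 and 48550 without excitatory replicate 2. The percent at gene starts was 16.0 and 24.3 with those 2 thresholds, 11.1 with equal numbers of peaks, 15.4 with 0.5 of a region covered, 6.49 with peaks within 500 bases merged, 5.67 within 1 kb and 14.3 within 5 kb of a start, 6.35 for genes with a known strand, and 3.99 to 9.62 when 1 library was left out.

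Members called by limma were 794 for H3K27ac, 1455 for H3K4me1, 305 for H3K27me3 and 793 for EGR1 when the region alone was the window. EGR1 gave 1648 calls without quantile normalization (1575 higher and 73 lower in excitatory nuclei of 4549 members, beside 23532 and 2756 of 94371 regions). It gave 1048 without the filter (944 and 104 of 7279, beside 14460 and 4561 of 345930) and 973 with equal numbers of peaks (736 and 237 of 3316, beside 9407 and 7392 of 66209). Quantile normalization moved its median difference over all regions from 8.37 to −1.42 points. Leaving out 1 library gave 0 to 170 calls for H3K27ac, 0 to 0 for H3K4me1 and H3K27me3 and 0 to 58 for EGR1; the lone library is then assumed to vary like the other type. The directions of these leave-out calls and the calls over all regions are not given here. Whether the members stood above all regions therefore cannot be read from these calls. The cause of the changes in the limma counts was not tested. With a replicate block there were 1319 calls for H3K4me1 (1274 higher and 45 lower of 6311 members, beside 15235 and 12693 of 209959 regions), 15 for H3K27me3 (4 and 11 of 3864, beside 247 and 298 of 128919) and 0 for the other antibodies. The difference between the replicates of excitatory nuclei correlated with that of inhibitory nuclei at 0.0131 to 0.0282 over the windows. The replicate numbers were therefore not taken as pairs. The correlation of coverage between libraries is not given here.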
